A study of Mus musculus with 2 samples.

Results

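The miR-130 and miR-301 family comprises microRNAs that carry the same seed, the bases near the 5′ end with which a microRNA recognises its target messages. Its members were taken as the microRNA genes whose identifiers map in GENCODE M21 to Mir130a, Mir130b, Mir301 (the gene of miR-301a) or Mir301b. All 4 were found among the 2202 microRNA genes of the count tables. Small RNA came from gastrocnemius, a muscle of the calf, taken from B6CASTF1/J males at 36 days of age. This strain is a first cross of C57BL/6J with mice of wild-derived CAST origin. The 2 libraries form 1 group and their labels describe different males, so no treatment, genotype or age was compared. Replicate 1 had 4134880 reads counted on the strand of a microRNA gene and replicate 2 had 3219740. Levels are in CPM, counts per 1000000 such reads, and means carry the SD over both libraries (n = 2).

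A mature microRNA guides an Argonaute protein to messages that pair with its seed, bases 2 to 8, and lowers their stability or translation. Members of the miR-130 and miR-301 family are known for repressing Pparg, the master regulator of fat cell formation. In human endothelial cells miR-130a is known for lowering the antiangiogenic homeobox proteins GAX and HOXA5. Skeletal muscle holds fibres, capillaries, connective tissue and fat cells, and the tissue RNA measured here does not separate them. In such bulk RNA, fewer cells of a type and less microRNA per cell cannot be told apart.

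The mature sequences show what joins and separates the members, and are from RefSeq on GRCm38.p6, the assembly also called mm10. Capitals mark the seed.
mmu-miR-130a-3p: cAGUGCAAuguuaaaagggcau
mmu-miR-130b-3p: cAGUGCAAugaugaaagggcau
mmu-miR-301a-3p: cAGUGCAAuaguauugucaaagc
These 3 products share the seed AGUGCAA, which pairs with UUGCACU in a message. Counting from 1 at the 5′ end, miR-130b-3p differs from miR-130a-3p by U11A and A13G, both outside the seed, and the other 20 of 22 bases are identical. miR-301a-3p shares its first 9 bases with both and then differs. The 3p product of Mir301b is mmu-miR-301b-3p.

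The products of the opposite arm have other seeds. Capitals again mark bases 2 to 8.
mmu-miR-130a-5p: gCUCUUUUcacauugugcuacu
mmu-miR-130b-5p: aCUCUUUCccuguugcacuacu
mmu-miR-301a-5p: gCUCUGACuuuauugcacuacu
mmu-miR-301b-5p: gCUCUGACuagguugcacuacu
miR-301a-5p and miR-301b-5p share the seed CUCUGAC, while the seeds CUCUUUU of miR-130a-5p and CUCUUUC of miR-130b-5p differ from it and from each other. The pair miR-301a-5p and miR-301b-5p is identical at 19 of 22 bases and differs by U10A, U11G and A12G. Across the other 5p pairs, 6 to 8 of 22 bases differ. The counts are per gene, so the values below do not divide reads between the 3p and 5p products.

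The hairpin precursors show how each seed sits against the opposite arm, with AGUGCAA in capitals.
Mir130a hairpin: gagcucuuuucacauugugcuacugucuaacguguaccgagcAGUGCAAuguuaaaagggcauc
Mir130b hairpin: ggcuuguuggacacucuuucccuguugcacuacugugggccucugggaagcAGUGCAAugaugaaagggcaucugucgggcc
Mir301 hairpin: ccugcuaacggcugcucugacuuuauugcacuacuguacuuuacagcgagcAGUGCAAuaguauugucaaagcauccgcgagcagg
Mir301b hairpin: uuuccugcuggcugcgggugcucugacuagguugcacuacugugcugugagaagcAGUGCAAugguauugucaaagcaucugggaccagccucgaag
All 4 hairpins hold AGUGCAA in the 3′ part of the stem, against 12 of all 1005 mouse hairpins in the RefSeq table (1.19%). Its reverse complement UUGCACU, the sequence of a perfectly paired opposite strand, lies in the hairpins of Mir130b, Mir301 and Mir301b and in 14 of the 1005 (1.39%). The Mir130a hairpin does not hold UUGCACU in the opposite arm. Lengths were 64 bases for Mir130a, 82 for Mir130b, 86 for Mir301 and 97 for Mir301b. The folding energies predicted by RNAfold followed the same order, at −22.1, −30.1, −37.0 and −39.1 kcal/mol.

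The genes lie at 3 places in the genome, all positions being mm10 with GENCODE M21. Mir130a (ENSMUSG00000065484.1, chr2:84741115-84741178, minus strand) overlaps no other annotated gene. Its nearest neighbour is Gm19426, 990 bases away on the same strand, and Ypel4 lies 2459 bases away on the opposite strand. Mir301 (ENSMUSG00000065589.1, chr11:87113004-87113089, plus strand) lies within Ska2 on the same strand, and both of the Ska2 transcripts that span it have an intron there. Ska2 encodes a spindle and kinetochore protein that acts in cell division.

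Mir301b (ENSMUSG00000076288.1, chr16:17124400-17124496, minus strand) and Mir130b (ENSMUSG00000065572.1, chr16:17124061-17124142, minus strand) are neighbours, with 257 bases between them. Both lie within the protein-coding gene 2610318N02Rik on its strand, in an intron of each of the 3 transcripts that span them. In the direction of transcription Mir301b comes first. No other microRNA gene lies within 10000 bases of any member.

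**Figure D1:**
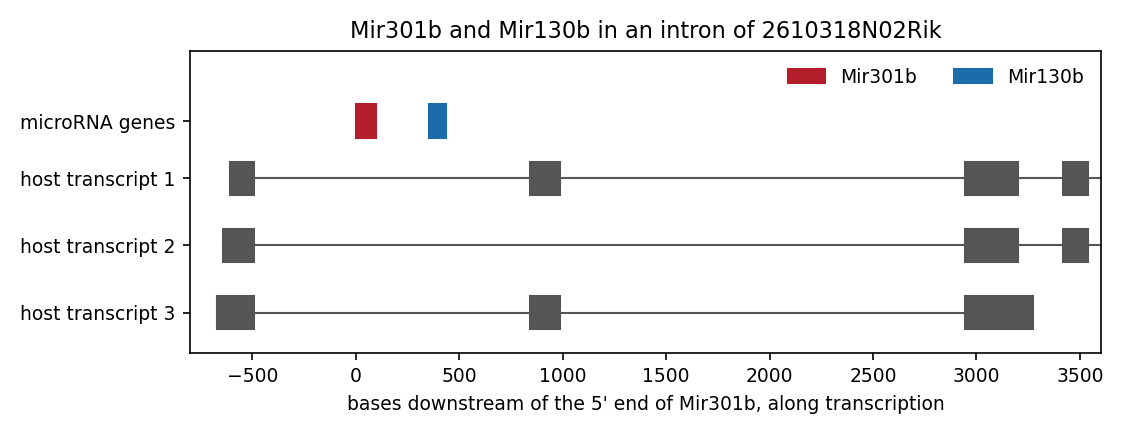
Map of Mir301b and Mir130b against the 3 transcripts of 2610318N02Rik that span them. The x axis gives bases downstream of the 5′ end of Mir301b along transcription, grey boxes are exons and grey lines introns; the microRNA genes sit 257 bases apart, outside the exons of all 3 transcripts.

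Mir130a carried nearly all reads of the family. Its count was 13204 in replicate 1 and 7382 in replicate 2, which is 3193 and 2293 CPM. Its mean of 2743 ± 637 CPM placed it 39th of the 2202 genes, at rank 37 in replicate 1 and rank 42 in replicate 2. Among the reads counted at microRNA genes, Mir130a is thus an abundant microRNA of this muscle sample in both animals, while the other 3 members were counted at far lower levels. Reads aligned to several loci, 70.4% of replicate 1 and 73.3% of replicate 2, appear to stay out of these ranks.

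Mir301 came next, with 274 counts in replicate 1 and 124 in replicate 2. That is 66.3 and 38.5 CPM, a mean of 52.4 ± 19.6 CPM and rank 196. Mir130b had 110 and 38 counts, or 26.6 and 11.8 CPM, a mean of 19.2 ± 10.5 CPM and rank 234. In both libraries Mir301, the intronic microRNA of Ska2, stood above Mir130b and below Mir130a.

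Mir301b was close to the limit of detection, with 6 reads in replicate 1 and 2 in replicate 2. Its mean was 1.04 ± 0.587 CPM. The exact Clopper-Pearson 95% interval of its level ran from 0.533 to 3.16 CPM in replicate 1 and from 0.0752 to 2.24 CPM in replicate 2. A library with no read of a gene could still hold 3 counts of it, or 0.726 CPM for replicate 1 and 0.932 CPM for replicate 2. The level of Mir301b in replicate 2 lies under that limit. These intervals and limits cover counting error only, since copies made by PCR are not independent molecules.

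**Figure D2:**
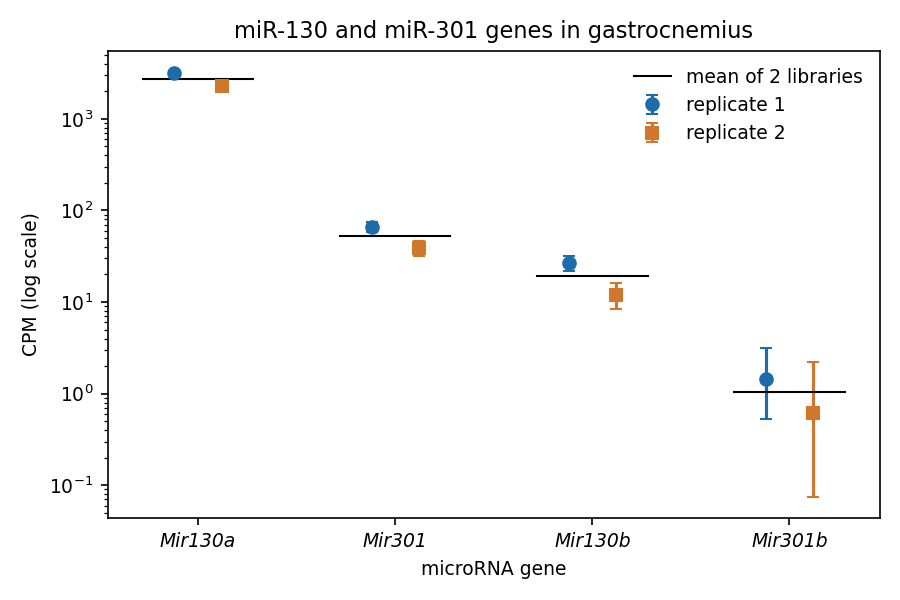
CPM of each family member (x axis) on a log scale (y axis), with circles for replicate 1 and squares for replicate 2. Vertical bars are exact 95% counting intervals and black lines the means of the 2 libraries; Mir130a stands at 3193 and 2293 CPM, the other members below 100 CPM, and the intervals of the 2 libraries overlap for Mir301b.

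Together the 4 genes had 13594 counts in replicate 1 and 7546 in replicate 2. This was 0.329% of counted reads in replicate 1, with an exact 95% interval from 0.323% to 0.334%, and 0.234% in replicate 2, with an interval from 0.229% to 0.240%. The summed level was 2816 ± 667 CPM. Mir130a held 97.1% of the family's counts in replicate 1 (interval 96.8 to 97.4) and 97.8% in replicate 2 (97.5 to 98.1). Mir301 held 2.02% and 1.64%, Mir130b 0.809% and 0.504%, and Mir301b 0.0441% and 0.0265%. The reads counted for the family therefore came almost wholly from the Mir130a locus in each animal.

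The order Mir130a, Mir301, Mir130b, Mir301b held in both libraries. Mir130a exceeded Mir301 by 5.74 ± 0.21 on the log2 scale of counts + 0.5 (SD, n = 2), which is 48.1-fold in replicate 1 and 59.3-fold in replicate 2. Mir301 exceeded Mir130b by 1.31 in replicate 1 and 1.69 in replicate 2 on this scale (SD 0.27), or 2.48-fold (interval 1.99 to 3.14) and 3.23-fold (interval 2.25 to 4.83). This was the smallest step between neighbours in the order, and it was still larger than the spread between the libraries. These differences carry no p-value, since the exact sign-flip test of 2 libraries allows no two-sided p under 0.5.

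The 2 microRNAs that share an intron of 2610318N02Rik were counted at unequal levels. Mir130b exceeded Mir301b by 4.02 ± 0.10 on the log2 scale, with 110 counts against 6 in replicate 1 and 38 against 2 in replicate 2. The counting interval of the fold ran from 8.16 to 51.0 in replicate 1 and from 4.91 to 163 in replicate 2. So the upstream microRNA of the pair gave the fewer reads in both animals, and the size of the gap is poorly fixed at this depth. Mir130a exceeded Mir130b, whose 3p product differs from its own at 2 bases, 119-fold in replicate 1 and 192-fold in replicate 2 (mean log2 ratio 7.24 ± 0.48). The counts of Mir301b and Mir130b are from 1 region and are not independent loci.

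How far reads could be shared between loci was checked on the hairpins. Against each of the 1004 other hairpins in the RefSeq table, the longest exact stretch was 17 bases for Mir130a, with Mir6389, and 16 bases for Mir130b, with Mir6368. For Mir301 and Mir301b it was 16 bases, shared with each other. Each is shorter than the 22 or 23 bases of the listed mature products. Shorter read fragments, alignment with mismatches, and copies elsewhere in the genome were not examined. Among all reads, 70.4% (replicate 1) and 73.3% (replicate 2) aligned to several loci, and the table layout implies that they are in no gene's count. CAST alleles that differ from mm10 could also lower a count, which was not analysed here.

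Other loci with the family's seed were looked up to see whether they added to it. Of 1738 mature mouse sequences in the RefSeq table, 7 have AGUGCAA at bases 2 to 8 (0.403%), and 4 of these are not products of the 4 members. The count of 7 does not include mmu-miR-301b-3p, which had no mature entry in the RefSeq sequences used. The hairpin of Mir301b does hold AGUGCAA.
mmu-miR-130c: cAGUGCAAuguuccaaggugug
mmu-miR-721: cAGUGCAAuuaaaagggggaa
mmu-miR-6341: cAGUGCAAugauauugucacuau
mmu-miR-6389: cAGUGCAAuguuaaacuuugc
Mir130c, Mir721, Mir6341 and Mir6389 had a count of 0 in both libraries, with strand considered or ignored. The limits for such a count, given above for Mir301b, apply to reads aligned to a single locus. At this depth no read was counted at these 4 loci, and Mir301b itself was not clearly above these limits.

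Families whose seeds overlap that of miR-130 at a shifted place were compared next. Capitals mark the 6 bases shared with AGUGCAA.
mmu-miR-148a-3p: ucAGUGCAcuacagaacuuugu
mmu-miR-148b-3p: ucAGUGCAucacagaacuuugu
mmu-miR-152-3p: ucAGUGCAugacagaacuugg
mmu-miR-19a-3p: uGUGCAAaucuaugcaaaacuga
mmu-miR-19b-3p: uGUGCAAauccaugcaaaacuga
The miR-148 and miR-152 family, known for repressing the DNA methyltransferase Dnmt1, carries AGUGCA from base 3, and miR-19, known from the oncogenic Mir17hg cluster, carries GUGCAA from base 2. The members of the miR-130 and miR-301 family summed to 3288 and 2344 CPM in replicates 1 and 2, against 930.1 and 636 CPM for Mir148a, Mir148b and Mir152. The log2 ratio of the family sum over these 3 loci was 1.85 ± 0.04, or 3.53-fold in replicate 1 and 3.69-fold in replicate 2.

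Within the shifted seed families the reads were spread otherwise. Mir148a averaged 362 ± 114 CPM, Mir152 312 ± 83.0 CPM and Mir148b 109 ± 11.1 CPM, a far smaller range than that between Mir130a and its relatives. Each of these lay between Mir130a and Mir301 in level. The 3 loci of miR-19 were barely counted, with 6 counts together in replicate 1 and 3 in replicate 2, so the family sum exceeded them 2091-fold and 2156-fold. The counting interval of this fold ran from 1041 to 6175 in replicate 1 and from 860.4 to 12200 in replicate 2. Mir19b-1 and Mir19b-2 share 25 bases, so their reads may be among those aligned to several loci. Mir19a shares an exact stretch of at most 13 bases with another hairpin. As miR-19a-3p and miR-19b-3p are nearly alike and alignment with mismatches was not examined, this does not show that reads of Mir19a aligned to a single locus.

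The miR-27 genes, which like miR-130 are known for repressing Pparg in fat cell precursors, were the other fixed comparison. Mir130a had 13204 counts in replicate 1 and 7382 in replicate 2, against 42828 and 29781 for Mir27b. The log2 ratio of Mir130a over Mir27b was −1.85 ± 0.22 (SD, n = 2). Against Mir27a, with 8115 and 6139 counts, Mir130a was higher, by 0.48 ± 0.31. Mir130a thus stood between Mir27b and Mir27a in both libraries. How far reads could be shared between Mir27a and Mir27b, or be left uncounted for it, was not examined. The gap between Mir130a and Mir27a was the narrower, at 1.63-fold in replicate 1 and a log2 ratio of 0.27 in replicate 2.

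**Figure D3:**
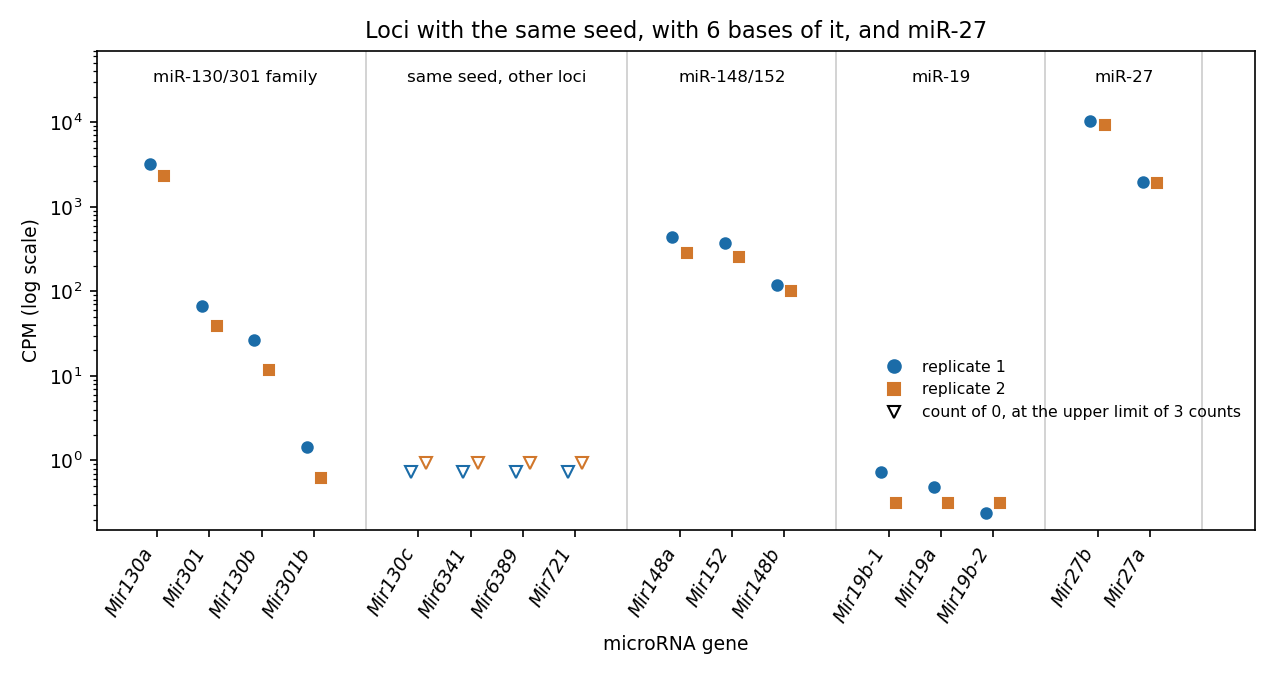
CPM on a log scale (y axis) of each locus (x axis) of the family, of other loci with the same seed, and of the miR-148 with miR-152, miR-19 and miR-27 families, with circles for replicate 1 and squares for replicate 2. Open triangles mark counts of 0, drawn at the upper limit of 3 counts; Mir130a at 2743 CPM on average exceeds Mir148a at 362 CPM and lies below Mir27b at 9804 CPM.

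All 4 members were higher in replicate 1 than in replicate 2, which describes a pair of animals and has no replicate check. Ratios are log2 of replicate 1 over replicate 2, of CPM + 1 after TMM scaling, a method that sets library sizes from genes of moderate ratio. Their counting intervals come from the counts without a pseudocount under the same scaling, so they are not centred on the printed ratio where counts are low. Of the 3 members averaging 10 CPM or more, 3 were higher in replicate 1, as were 55.9% of the 261 genes at that level, or 79.7% when libraries were scaled to the total count. Past 1.5-fold, 2 of the 3 were higher in replicate 1, against 8.43% of the 261 genes. None of the 3 was past 1.5-fold lower in replicate 1, against 1.92%. Among all 261 genes, 22 were past 1.5-fold higher and 5 lower in replicate 1, or 35 and 3 under scaling to the total count. With a minimum of 100 CPM, 2 of 165 genes were past 1.5-fold higher. Most of the 22 thus averaged under 100 CPM, as did Mir301 and Mir130b. The 8.43% covers all levels from 10 CPM and is not matched to the level of these members. The median ratio was 0.60 for the 3 members and 0.05 for all 261 genes. With 3 members of which 1 dominates the reads, these counts describe the family and do not set it apart.

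Mir130a differed least among the 3 tested members. Its ratio was 0.31, or 1.24-fold, with a counting interval from 0.27 to 0.35. Of the 261 genes, 56 had a higher ratio. Among the 26 genes within 2-fold of its mean level, 2 had a higher ratio, and the median of the 26 was 0.02. In the same window around the other members, 8 of 58 genes had a higher ratio than Mir301 and 6 of 50 than Mir130b. For Mir301b it was 28 of 122. Mir301 had a ratio of 0.60, or 1.52-fold, with a counting interval from 0.30 to 0.93. It lay under 1.5-fold with DESeq2 size factors, at 0.55, with a pseudocount of 5, at 0.56, and with strand ignored, at 0.58.

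Mir130b had the largest ratio of the family on CPM + 1, at 0.95, or 1.93-fold. Without a pseudocount its ratio was 1.01, and that of Mir301b was 1.06, so this order rests on the pseudocount. Its counting interval ran from 0.46 to 1.58, and 14 of the 261 genes had a higher ratio. Mir301b had a ratio of 0.51 from 6 and 2 counts, and its counting interval, with a lower bound of −1.43, covers either direction. No difference between the animals was therefore detectable for Mir301b at this depth. For all 4 members the ratio stayed above 0 in each of the 7 other settings of scaling, pseudocount and strand that were tried. Of the 261 genes, 49.0% to 85.8% had a ratio above 0, depending on the scaling. Across these settings the ratio ran from 0.26 to 0.60 for Mir130a and from 0.55 to 0.83 for Mir301. For Mir130b it ran from 0.78 to 1.11, and for Mir301b from 0.17 to 0.69.

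**Figure D4:**
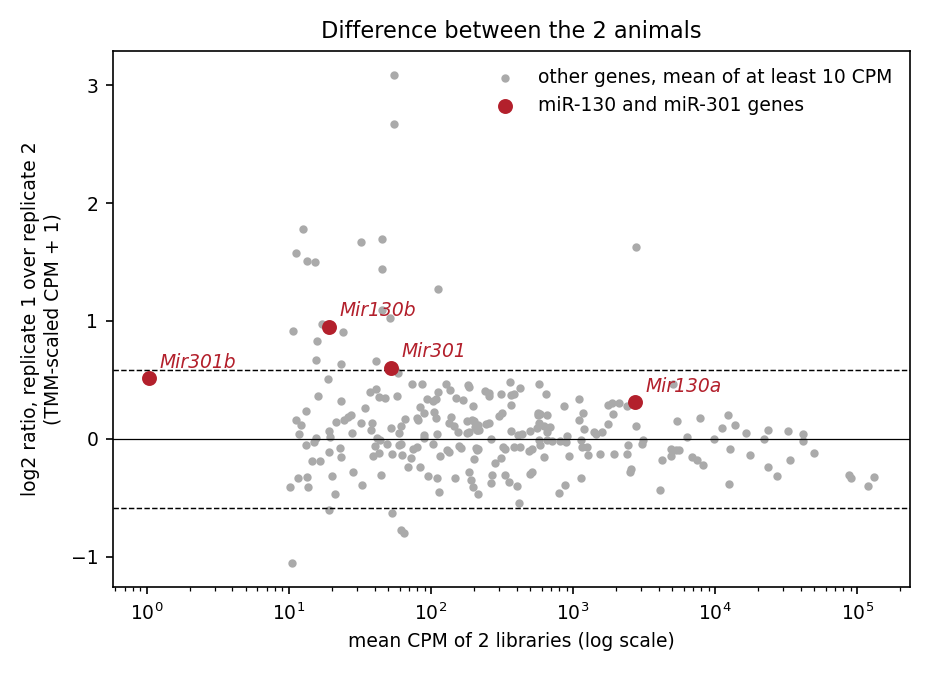
Log2 ratio of replicate 1 over replicate 2 after TMM scaling (y axis) against mean CPM on a log scale (x axis). Grey points are other genes averaging 10 CPM or more, red points the 4 family members, and dashed lines mark 1.5-fold; Mir130b at 0.95 and Mir301 at 0.60 lie above the upper line, while Mir130a at 0.31 and Mir301b at 0.51 lie below it.

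The relatives by seed gave the following ratios between the animals. Mir148a and Mir152 were higher in replicate 1, at 0.49 and 0.38, and Mir148b had 0.04, which turned to −0.01 with DESeq2 size factors. Mir27b had 0.00 and Mir27a −0.13, and both turned positive when libraries were scaled to the total count, at 0.16 and 0.04. The ratio of the family sum was 0.32, beside 0.38 for the summed miR-148 and miR-152 loci and −0.02 for the summed miR-27 loci. The difference between families was not tested.

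Marker microRNAs of the cell types in muscle also differed between the animals. Of the 10 striated muscle markers, all were detected, as fits the labelled tissue, with a sum of 27374 CPM in replicate 1 and 30448 CPM in replicate 2. Mir206 alone gave 25834 and 28690 CPM of these sums. The microRNAs of the Mir1a and Mir133a loci have more than 1 locus each, so reads aligned to several loci would be missing from their counts. The endothelial Mir126a had 85413 CPM in replicate 1 and 95833 in replicate 2. Its ratio of −0.33 was opposite in sign to that of Mir130a. Under the scalings and pseudocounts tried it stayed negative, from −0.39 to −0.04. With strand ignored it was 0.61, where Mir130a had 0.29. That column counts fewer reads in total, and other markers, among them Mir486 and Mir451a, have a ratio of exactly 0 in it. The value of Mir126a there was therefore not read as a direction. The 6 smooth muscle and fibroblast markers summed to 86700.2 and 94619 CPM, but 3 of their 5 tested members, Mir214, Mir199b and Mir199a-2, were higher in replicate 1, at 0.34, 0.47 and 0.32. The 9 neuron and glia markers summed to 4297 CPM in replicate 1, against 1244 CPM in replicate 2, nearly all from Mir338. The Mir124a and Mir9 loci had a count of 0, but each of these microRNAs has several loci, and reads aligned to more than 1 of them would be in no gene's count. The leukocyte markers summed to 2326 and 2425 CPM, the red cell markers to 405 and 394 CPM, the epithelial markers to 237 and 216 CPM, and the liver Mir122 stood at 20.6 and 4.66 CPM. After the TMM scaling used for the family's ratios, the summed ratio was −0.23 for the leukocyte markers. It was −0.13 for the red cell markers and −0.03 for the epithelial markers. The red cell and epithelial sums thus change direction between total-count and TMM scaling. Single markers departed from their sums. Among the 5 leukocyte markers Mir223 had 0.37, and 1 to 3 were higher in replicate 1 depending on the scaling. The red cell Mir144 had 0.01. The epithelial sum was mostly Mir203, at −0.08, while the other epithelial markers, each averaging under 10 CPM, had ratios above 0. The part of any of these cell types in the ratios of the family was not tested.

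The genes nearest to each member in level over both libraries were named by distance, the root of the summed squared differences of log2(CPM + 1), among 294 other genes with at least 10 counts in each library. Nearest to Mir130a were Mir125a at a distance of 0.15, Mir299a at 0.27 and Mirlet7e at 0.33. Mir301 lay nearest to Mir700, Mir210 and Mir323, at 0.15, 0.24 and 0.25. For Mir130b these were Mir7j, Gm49347 and Mir92b, at 0.25, 0.32 and 0.36. With 2 libraries the measure reflects level almost alone, and Mir301b had too few counts to be placed.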

How the data were processed

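For each library the authors deposited a table of raw read counts by microRNA gene, made on mm10 with GENCODE M21 per the files' descriptions. The aligner, the counter and any trimming were not stated in these sources. A table holds 3 count columns (strand ignored, the gene's strand, the opposite strand) and 4 rows that name no gene, which stayed out of library sizes. Counts on the gene's strand were used. The share of reads that was counted was 20.96% for replicate 1 and 19.2% for replicate 2, while 70.4% and 73.3% aligned to several loci, 7.05% and 6.02% were unmapped, and 1.63% and 1.51% lay outside microRNA genes. The libraries were kept as 2 samples because their labels describe different males. Their counts differed beyond counting noise (a chi-square over 362 genes gave 111.5 for each degree of freedom), which repeats of 1 sample can do too. Nothing divides their spread into biological and technical parts.

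CPM used the total of counted reads. Ratios within a library used counts + 0.5, and ratios between libraries CPM + 1 after TMM (edgeR 4.0.16), checked on simulated data. DESeq2 1.42.0 size factors, other scalings, pseudocounts, minimums and the column ignoring strand were alternatives. With 1 group no count test between groups was possible. Intervals are exact 95% binomial (scipy 1.17.1), folding energies RNAfold of ViennaRNA 2.7.2, and sequences RefSeq GRCm38.p6, which had hairpins for 4 of 4 members. Named genes were the members, loci with the same seed, the miR-19, miR-148 with miR-152, and miR-27 loci, the cell type markers and the 3 nearest genes per member in level. The members and lists were chosen with earlier results of these data known.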

Additional observations from a re-analysis of the deposited data

Results flagged for a closer look

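Reads on the strand opposite to Mir130a stand in a column that the comparisons above do not use. Replicate 2 had 4 such reads and replicate 1 had 2. The 4 reads were flagged against the 3 counts that a count of 0 allows, which is not a threshold for detection. These opposite-strand reads stand beside 7382 reads on the strand of Mir130a in replicate 2 and 13204 in replicate 1. The other 3 family members had 0 reads on the opposite strand in both libraries. Groups of 2 libraries were not examined for outliers.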

How the results depend on the processing

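Of 129 values recomputed under another setting, 102 stayed within the replicate or counting error, or within 1.5 times for counts of genes, and 27 moved further. No ratio of a family member between or within the libraries changed sign. Those of Mir148b, Mir27a, Mir27b and several cell type markers, among them Mir451a, did under at least 1 scaling. That of Mir126a turned positive only in the column that ignores strand, and stayed negative under each scaling and pseudocount. The summed level of the family was 2816 CPM as reported, 570 CPM over all reads of the library and 3742 CPM with strand ignored, where the counted total is smaller; without replicate 1 or without replicate 2 it was 2344 or 3288 CPM. The log2 ratio of Mir130b over Mir301b was 3.84 with a pseudocount of 1 and 4.22 with none, and that of the family sum over the miR-19 loci was 10.90 and 11.22, since both rest on few counts. Leaving out a replicate gave 5.59 and 5.89 for Mir130a over Mir301, 1.31 and 1.69 for Mir301 over Mir130b, and 3.94 and 4.09 for Mir130b over Mir301b.

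Relative to TMM, the ratios of the tested genes shifted by a median of 0.17 per gene under total-count scaling, 0.14 without the most abundant gene and 0.29 over all reads. All 4 members were higher in replicate 1 under each scaling, although the counting interval of Mir301b covers either direction. Of the 261 tested genes, 79.7% were higher under total-count scaling and 49.0% with DESeq2 size factors. The share was 76.2% without the most abundant gene and 85.8% over all reads. At a minimum of 100 CPM 1 of 1 member was higher, and the share of all genes there was not computed. Genes past 1.5-fold higher in replicate 1 numbered 35 of 261 under total-count scaling and 55 of 261 over all reads. With minimums of 1 CPM, 100 CPM and none, they numbered 50 of 380, 2 of 165 and 74 of 639. Those lower, among the same numbers of genes, were 3 under total-count scaling and without the most abundant gene, and 0 over all reads. With the 3 minimums they were 31, 0 and 60. No paired analysis was possible because the series has 1 group. Depth limits Mir301b, with 6 and 2 counts.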
